A study of Mus musculus with 2 samples.

Results

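The genes of 10 growth factors and matrix-linked proteins were followed in mouse macrophages given an antibody against CD40 or IgG: Tgfb1, Tgfbi, Pdgfa, Pdgfb, Pdgfc, Igf1, Vegfa, Vegfb, Hbegf and Spp1. They were chosen by name, and 10 of 10 were found among the 34714 genes of the expression table. Macrophages that enter injured tissue are known to secrete such factors. Transforming growth factor beta turns fibroblasts toward matrix production, platelet-derived growth factors make mesenchymal cells divide, insulin-like growth factor 1 supports survival and growth, vascular endothelial growth factors act on blood vessels, and heparin-binding EGF-like growth factor acts on epithelial and muscle cells. TGFBI and osteopontin, the product of Spp1, are secreted proteins of the matrix that cells bind through integrins. Most of these factors act on neighbouring cells.

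The cells were C57BL/6 bone marrow-derived macrophages, grown in both groups with macrophage colony-stimulating factor at 20 ng/mL. One group received the activating anti-CD40 antibody FGK45 for 24 h and the control group received IgG, also for 24 h per the sample titles. Each group is 1 RNA-seq library, and how many mice or cultures stand behind a library is not given in the sources used here. Differences could therefore not be set against the spread between replicates, no test was run, and "higher" and "lower" below mean with anti-CD40 relative to IgG.

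Levels are FPKM, in which fragments are divided by the length of the transcript and by the library's total, so they can be compared between genes. The steps in the values gave depths of about 6.16 gigabases (anti-CD40) and 5.58 gigabases (IgG) of aligned sequence. Each interval below is a 95% exact interval on approximate fragment numbers and covers counting error only, not the spread between cultures. Macrophage markers were present, with 10 of 10 at 1 FPKM or more. Of the 10, 1 was at least 1.3-fold higher and 0 lower on the log2(FPKM + 1) scale. Among all genes at 1 FPKM or more, 12.0% were higher and 6.34% lower by that rule. Fcgr1 had a fold of 0.893 (interval 0.830 to 0.961). The summed level of the 10 markers was 15474 FPKM with anti-CD40 and 13121 FPKM with IgG. Lyz2, the lysozyme gene, held most of it at 13423 and 11326 FPKM (fold 1.19). Cd14, the lipopolysaccharide co-receptor gene, was at least 1.3-fold higher, at 333 and 244 FPKM, and its log2 ratio of 0.45 became 0.32 once ratios were centred on the median of all genes, under 1.3-fold. Spi1, the gene of the myeloid factor PU.1, had a fold of 1.29 and Adgre1, a surface receptor gene of mature macrophages, 1.21, while Csf1r, the receptor for the culture's growth factor, had 333 FPKM in both libraries. The part of these markers in the differences of the growth factor genes was not tested. No fibroblast marker (0 of 10) and no T or B cell marker (0 of 9) reached 1 FPKM, and Lum, Thy1, Dpt, Cd3e and Pax5 were listed at 0 in both. The collagen I chain genes of the fibroblast list were below 1 FPKM but higher with anti-CD40. Col1a1 had 0.406 and 0.0319 FPKM, about 49 and 4 fragments (fold 12.7, interval 4.07 to 42.3), and Col1a2 had 0.513 and 0.271 FPKM (fold 1.89, interval 1.17 to 3.09). The other fibroblast markers above 0 had fold intervals that included 1. These were Col3a1 (fold 0.711), Pdgfrb (0.841), Dcn (1.13), Postn (1.21) and Pdgfra (5.96, about 5 and 1 fragments). The summed level of the 10 fibroblast markers was 1.38 FPKM with anti-CD40 and 0.720 FPKM with IgG. Most of that difference lay in Col1a1 and Col1a2. Of 10 neutrophil markers 1 (S100a8) and of 10 endothelial markers 1 (Vwf) reached 1 FPKM. So did 6 of 10 megakaryocyte markers and 6 of 10 osteoclast markers. S100a8 was at least 1.3-fold higher, at 1.82 and 1.11 FPKM, about 18 and 10 fragments. The interval of its fold ran from 0.713 to 3.95, and its log2 ratio of 0.42 became 0.30 after centring, under 1.3-fold. Below 1 FPKM, the neutrophil marker Mmp8 had 0.702 and 0.353 FPKM, about 35 and 16 fragments (fold 1.99, interval 1.07 to 3.83). The other neutrophil markers below 1 FPKM had fold intervals that included 1 or were at 0 in both libraries. In bulk RNA, fewer cells of a type and less RNA per cell cannot be told apart.

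Pdgfb and Tgfbi were the members that stood higher with anti-CD40 by at least 1.3-fold, the size used as a call, on the log2(FPKM + 1) scale. In all, 8 members reached 1 FPKM in at least 1 library and were counted, and Hbegf and Pdgfc did not. The calls were 2 of 8 higher, against 12.0% of all 9591 genes counted by the same filter, and 0 of 8 lower, against 6.34%. No member was 1.5-fold higher or lower on that scale (0 of 8), against 2.68% and 2.15% of all genes. The median log2 ratio was 0.16 over the 8 members and 0.12 over all counted genes. Of the 8, 5 lay above that all-gene median. After centring every ratio on the all-gene median, Pdgfb and Tgfbi were still the members called, while the shares of all genes changed to 4.82% higher and 11.0% lower.

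**Figure D1:**
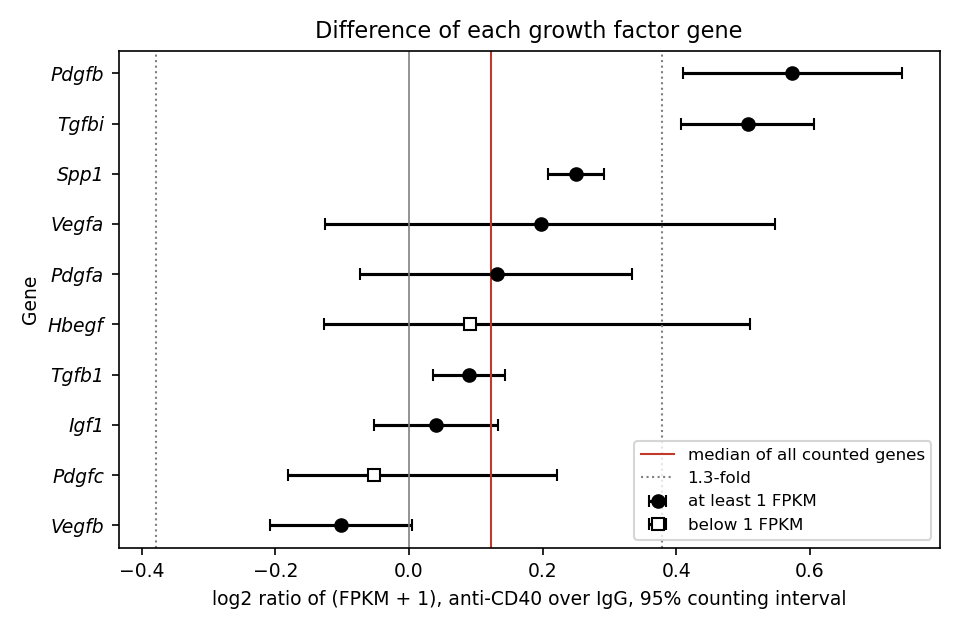
Difference of each of the 10 genes, as anti-CD40 over IgG on the log2(FPKM + 1) scale (x axis), with 95% counting intervals as bars, filled circles for genes at 1 FPKM or more and open squares for those below. Pdgfb (0.57) and Tgfbi (0.51) lie beyond the dotted 1.3-fold line, Vegfb (-0.10) is the lowest, and the vertical coloured line is the median of all counted genes (0.12).

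**Figure D2:**
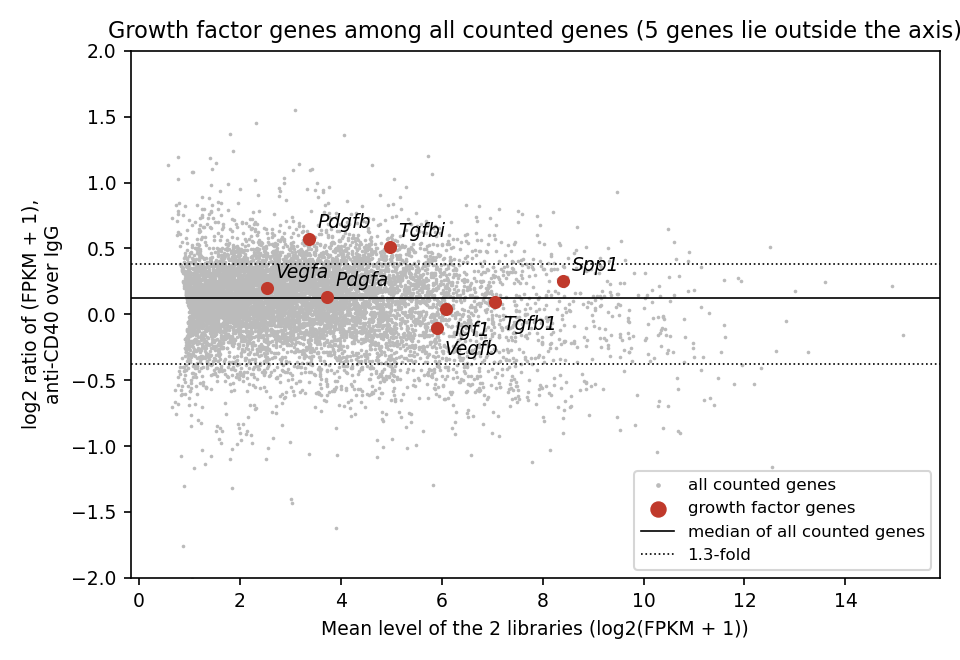
Each point is 1 of 9591 counted genes, by its mean log2(FPKM + 1) over both libraries (x axis) and its log2 ratio (y axis, which leaves 5 genes outside its range). The 8 counted growth factor genes are named, and 6 of them lie between the dotted 1.3-fold lines.

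Tgfb1 (chr7:25687002-25705077, GRCm38.p6, plus strand) encodes TGF-beta 1, which macrophages secrete in a latent form. It stood at 136 FPKM with anti-CD40 and 128 FPKM with IgG. The fold of the FPKM values was 1.06, with an interval from 1.03 to 1.11, and its log2 ratio of 0.09 was below the all-gene median. Its direction depends on the scaling, with log2 ratios of -0.03 after centring, -0.0035 with equal upper quartiles and 0.14 with equal column sums. The other isoforms were near the floor, with Tgfb3 at 0.017 FPKM in both libraries and Tgfb2 listed at 0 with IgG and at 0.013 FPKM with anti-CD40.

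Tgfbi (chr13:56609586-56639359, plus strand), a matrix protein gene named for its response to TGF-beta, had 36.5 FPKM with anti-CD40 and 25.4 FPKM with IgG. That is 1.44-fold higher (interval 1.34 to 1.54), and 4.54% of all counted genes had a higher log2 ratio. The Tgfbi level was 0.268 of the Tgfb1 level with anti-CD40 and 0.199 of it with IgG. This quotient of levels within a library does not depend on how libraries are scaled, and it was 1.35-fold larger with anti-CD40 (interval 1.25 to 1.46). The stretch before the Tgfbi start is shown because this gene and Pdgfb were the members called, and Pdgfb has no entry in the promoter table. Capitals mark a GC box (GGGCGG), whose nearest base lies 119 bases before the start, and a hypoxia response core (ACGTG or GCGTG) at 86 bases. The sequences here are from RefSeq on GRCm38.p6, written 5′ to 3′ in the gene's direction, from 250 bases before the start up to the start or to the first base annotated as an exon.
Tgfbi, chr13:56609336-56609522, plus strand: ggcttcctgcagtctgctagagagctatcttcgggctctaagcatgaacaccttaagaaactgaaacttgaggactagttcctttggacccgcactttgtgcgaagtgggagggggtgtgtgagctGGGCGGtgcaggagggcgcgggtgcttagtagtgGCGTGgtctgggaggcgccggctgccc
The search covered 4 motifs on both strands, the other two being AP-1 (TGANTCA) and the NF-kB consensus, and no capitals overlap between motifs in the stretches shown. Of all 32851 windows of 250 bases before a start, 32.7% held a GC box, 38.6% a hypoxia response core, 6.75% AP-1 and 3.90% NF-kB. A match describes letters and is not evidence of a bound site.

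The genes around TGF-beta were next taken from a list of 18 further ligands, latency proteins, activators and receptors, of which 8 reached 1 FPKM. None passed 1.3-fold on the log2(FPKM + 1) scale (0 of 8 higher and 0 of 8 lower). On that scale 12.0% of all counted genes were called higher and 6.34% lower. The median log2 ratio of the 8 was 0.19, against 0.12 for all counted genes. The signalling receptors Tgfbr1 and Tgfbr2 had 7.19 against 5.62 FPKM and 12.0 against 9.63 FPKM, anti-CD40 first. Their folds were 1.28 (interval 1.08 to 1.51) and 1.24 (interval 1.15 to 1.35). Acvrl1, another type I receptor of the family, had 9.72 FPKM with anti-CD40 and 12.6 FPKM with IgG, a fold of 0.769 (interval 0.669 to 0.883), and its log2 ratio of -0.35 became -0.47 after centring, past 1.3-fold. Its co-receptor Eng had 8.26 and 8.81 FPKM. Nrros, which tethers latent TGF-beta 1 on myeloid cells, stood at 67.6 and 62.6 FPKM, whereas Lrrc32, the tether of regulatory T cells and platelets, had 0.142 and 0.245 FPKM. Furin, the protease that cleaves the TGF-beta precursor, had 12.3 and 9.99 FPKM, and the latency protein gene Ltbp3 10.0 and 9.45 FPKM. Below 1 FPKM, Ltbp2 had 0.133 and 0.0139 FPKM, about 18 and 2 fragments (fold 9.55, interval 1.95 to 72.4). Thbs1 had 0.395 and 0.191 FPKM (fold 2.07, interval 1.19 to 3.57). The other listed genes below 1 FPKM had fold intervals that included 1 or were at 0 in both libraries. Itgav had 2.71 and 2.05 FPKM, a fold of 1.32 (interval 1.13 to 1.55), and its log2 ratio of 0.28 stayed under the call. Its activating partners Itgb6 and Itgb8 were listed at 0 in both libraries.

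Genes that often respond to TGF-beta or BMP signals were given by a list of which 11 genes were in the table, and 5 reached 1 FPKM. Of these, 2 were called higher and 0 lower, where 12.0% of all counted genes were called higher and 6.34% lower. Id3, an inhibitor of helix-loop-helix transcription factors, had 14.2 FPKM with anti-CD40 and 6.13 FPKM with IgG, which is 2.32-fold higher (interval 1.91 to 2.82). Id2, of the same family, had 29.3 and 20.7 FPKM, 1.41-fold higher (interval 1.26 to 1.58), and its log2 ratio of 0.48 was 0.36 after centring, under the call. The inhibitory Smad7 stayed below 1 FPKM, at 0.276 and 0.172, as did the matrix protein gene Ccn2 (0.0958 and 0.0728).

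Among the platelet-derived growth factors, Pdgfb stood higher with anti-CD40 and Pdgfa did not pass the call. Pdgfb (chr15:79995865-80024614, minus strand) encodes the B chain and had 11.6 FPKM with anti-CD40 and 7.48 FPKM with IgG. Its fold of 1.55 had an interval from 1.37 to 1.76, and 2.89% of counted genes had a higher log2 ratio. Mir7213 and the antisense gene Gm41361 overlap its span and share 0 exon bases with it. Pdgfa (chr5:138976014-139000792, minus strand), the gene of the A chain, had 12.8 and 11.6 FPKM, a fold of 1.10 with an interval from 0.946 to 1.28. The antisense gene 6330403L08Rik shares 813 exon bases with Pdgfa in GENCODE, and how reads there were assigned is not given in the sources used here, which also bears on quotients to Pdgfa. The A and B chains pair with themselves or each other. Pdgfb was at 0.645 of the Pdgfa level with IgG and at 0.907 of it with anti-CD40, a quotient 1.41-fold larger (interval 1.16 to 1.72). With anti-CD40 the counting intervals of the Pdgfa and Pdgfb levels overlapped, and with IgG they did not. Pdgfc, a ligand activated outside the cell by proteolysis, had 0.189 and 0.233 FPKM, about 14 and 15 fragments, and the interval of its fold ran from 0.378 to 1.88. An antisense gene, Gm16000, shares 147 exon bases with it. Pdgfd was listed at 0 in both libraries. The receptor genes Pdgfra (0.0457 and 0.00766 FPKM) and Pdgfrb (0.1001 and 0.119 FPKM), which fibroblasts express, stayed near the floor.

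Platelets and megakaryocytes also hold PDGF, so the megakaryocyte markers are given beside Pdgfb. Their summed level over 10 genes was 42.1 FPKM with anti-CD40 and 39.5 FPKM with IgG, and none was listed at 0 in both libraries. Pf4, a platelet chemokine gene that was called higher, had 16.4 and 10.5 FPKM, and its fold was 1.55 (interval 1.20 to 2.01). The glycoprotein gene Gp1bb was called lower at 1.28 and 2.14 FPKM, and the integrin gene Itga2b had 7.77 and 8.29 FPKM. Vwf, also on the endothelial list, had 12.1 and 14.7 FPKM (fold 0.819, interval 0.728 to 0.922). Of the 6 counted markers, 1 was called higher and 1 lower, beside 12.0% and 6.34% of all counted genes. The fold of Gp1bb was 0.600 (interval 0.398 to 0.906). The fold intervals of Ppbp (1.49), Itga2b (0.938) and Gp1ba (0.769) included 1. The part of these markers in the Pdgfb difference was not tested.

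Igf1 (chr10:87858265-87937047, plus strand) had 67.6 FPKM with anti-CD40 and 65.7 FPKM with IgG. This fold of 1.03 had an interval from 0.963 to 1.10, and centring turned the log2 ratio from 0.04 to -0.08. Igf1 stood at 0.497 of the Tgfb1 level with anti-CD40 and at 0.515 of it with IgG. The ratio of these quotients was 0.967 (interval 0.896 to 1.04). The gene Igf1os overlaps the span of Igf1 on the opposite strand, sharing 0 exon bases in GENCODE, and had 20.9 and 20.5 FPKM. Whether strand was used in counting is not given in the sources used here. Of 12 other genes of the IGF system, 3 reached 1 FPKM, with 1 called higher and 0 lower, beside the same 12.0% and 6.34% of all genes. That gene was Igf2r, whose product carries IGF2 and mannose-6-phosphate proteins to lysosomes, at 16.5 and 12.4 FPKM (1.33-fold, interval 1.26 to 1.41), and its log2 ratio of 0.39 became 0.27 after centring, under the call. Igfbp4, the gene of a binding protein that holds IGF1 away from its receptor, had 89.3 and 81.9 FPKM, above the level of Igf1 itself. The receptor gene Igf1r had 0.406 and 0.398 FPKM and the insulin receptor gene Insr 1.87 and 1.58 FPKM. Igf2 was listed at 0 in both.

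Neither VEGF ligand gene among the members passed the call, and the intervals of both folds included 1. Vegfa (chr17:46016993-46032377, minus strand), the main vessel-forming ligand and a known hypoxia target, had 5.22 FPKM with anti-CD40 and 4.42 FPKM with IgG. Its fold of 1.18 had an interval from 0.898 to 1.57. Vegfb (chr19:6982472-6987651, minus strand), a ligand linked to fatty acid uptake by endothelium, was far more abundant at 56.5 and 60.8 FPKM. Its fold of 0.931 had an interval from 0.864 to 1.003, and its log2 ratio was negative under each of the 4 scalings run. Vegfa stood at 0.0923 of the Vegfb level with anti-CD40 and 0.0728 of it with IgG, a quotient 1.27-fold larger with an interval from 0.955 to 1.70. Vegfc (0.186 and 0.215 FPKM), Vegfd (0.152 and 0.141) and Pgf (0.170 and 0.246) were below 1 FPKM. The stretches before both starts are shown because these paralogs differ in level.
Vegfa, chr17:46032378-46032627, minus strand: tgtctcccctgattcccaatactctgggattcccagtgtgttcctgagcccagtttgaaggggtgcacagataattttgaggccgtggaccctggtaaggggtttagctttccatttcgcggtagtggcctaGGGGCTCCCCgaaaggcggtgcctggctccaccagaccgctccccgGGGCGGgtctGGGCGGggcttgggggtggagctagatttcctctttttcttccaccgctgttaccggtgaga
Vegfb, chr19:6987652-6987901, minus strand: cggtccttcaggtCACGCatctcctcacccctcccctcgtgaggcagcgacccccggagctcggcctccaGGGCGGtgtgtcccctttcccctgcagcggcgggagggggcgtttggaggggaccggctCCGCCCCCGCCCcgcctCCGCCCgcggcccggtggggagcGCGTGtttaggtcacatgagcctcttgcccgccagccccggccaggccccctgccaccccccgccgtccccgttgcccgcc
The Vegfa stretch held 2 GC boxes, the nearest 57 bases before the start, and 1 NF-kB match at 109 bases, in capitals. It held 0 hypoxia response cores, which says only that these letters are absent from this window. A second Vegfa start in the table, whose window is chr17:46025164-46025413 and has 218 bases annotated as exon, held 2 such cores, 207 and 214 bases before that start. The Vegfb stretch held 4 GC boxes and 2 hypoxia response cores. Neither held an AP-1 match.

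Flt1 (0.0707 and 0.0696 FPKM), Kdr (0.671 and 0.631) and Flt4 (0.00823 and 0.0124), the receptor kinases of endothelium, did not reach 1 FPKM. Nrp1, the gene of the co-receptor neuropilin 1, was called lower, with 35.6 FPKM with anti-CD40 and 52.4 FPKM with IgG. Its fold of 0.679 had an interval from 0.645 to 0.714. Nrp2 was not called, at 24.5 and 21.5 FPKM with a fold of 1.14 (interval 1.08 to 1.20). Of the 8 listed genes of the family, 2 reached 1 FPKM, 1 of them lower and 0 higher, too few to set against the 6.34% of all genes called lower.

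Hbegf, which encodes a membrane-anchored ligand of the EGF receptor, was scarce, at 0.329 FPKM with anti-CD40 and 0.248 FPKM with IgG. These levels rested on about 16 and 11 fragments, and the fold of 1.33 had an interval from 0.574 to 3.14, so no difference was detectable at this depth. The overlapping gene Gm41698 was listed at 0 in both libraries. The related ligand genes Tgfa, Areg, Ereg and Btc were listed at 0 in both libraries. The receptor genes stayed below 1 FPKM, with Egfr at 0.0595 and 0.0273 FPKM and Erbb3 at 0.329 and 0.202 FPKM. Of 18 listed genes of the EGF system, 5 reached 1 FPKM, 2 of them called higher and 0 lower, beside 12.0% and 6.34% of all counted genes. The 5 take part in shedding or display of ligands. Rhbdf2, the gene of iRhom2, which carries the sheddase ADAM17 to the cell surface, had 15.5 and 9.89 FPKM (1.57-fold higher, interval 1.43 to 1.73). Adam17 itself had 17.7 and 14.5 FPKM, a fold of 1.22 (interval 1.13 to 1.31), and was not called. The related sheddase genes Adam9 (5.89 and 5.01 FPKM, fold 1.17) and Adam10 (9.83 and 9.40 FPKM) were not called either. Cd9, a tetraspanin gene whose product associates with HB-EGF, had 138 and 98.6 FPKM (1.40-fold higher, interval 1.33 to 1.48), and its log2 ratio of 0.48 became 0.36 after centring, under the call.

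Spp1 (chr5:104435111-104441053, plus strand) was the most abundant of the 10 genes, at 369.5 FPKM with anti-CD40 and 311 FPKM with IgG. Osteopontin, its product, is a secreted phosphoprotein often found in macrophages of scarring tissue. The fold was 1.19 (interval 1.16 to 1.22) and stayed under the call of 1.3-fold, and 27.9% of counted genes had a higher log2 ratio. Its log2 ratio of 0.25 became 0.13 after centring, 0.16 with equal upper quartiles and 0.30 with equal column sums. Each of these values lies outside the counting interval. In the order of all genes, Spp1 took place 199 with anti-CD40 and place 237 with IgG. On the same strand, Gm42793 shares 309 exon bases with Spp1 in GENCODE and was not analysed here. The quotient of Spp1 to Tgfb1 was 2.72 with anti-CD40 and 2.43 with IgG, 1.12-fold larger (interval 1.07 to 1.17). The stretch before its start is shown because it is the member with the highest level. It carries no capitals, since none of the 4 motifs matched there.
Spp1, chr5:104434861-104435110, plus strand: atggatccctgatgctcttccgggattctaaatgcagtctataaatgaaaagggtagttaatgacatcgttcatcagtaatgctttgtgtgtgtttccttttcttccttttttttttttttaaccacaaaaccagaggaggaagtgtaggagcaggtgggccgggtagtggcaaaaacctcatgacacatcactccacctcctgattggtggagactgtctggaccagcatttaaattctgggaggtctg

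Receptors of osteopontin and TGFBI were measured in the same cultures. Of 11 listed, 7 reached 1 FPKM, and 0 were called higher and 0 lower, beside 12.0% and 6.34% of all counted genes. Their median log2 ratio was 0.09, against 0.12 for all counted genes. The hyaluronan and osteopontin receptor gene Cd44 had 22.3 and 20.9 FPKM. Of the integrin beta chains that pair with the alpha v chain, Itgb5 had 71.6 and 62.3 FPKM (fold 1.15, interval 1.10 to 1.20) and Itgb3 9.35 and 11.3 FPKM (fold 0.825, interval 0.760 to 0.896). Itgb1, the gene of the beta 1 chain, which pairs with many alpha chains, had 49.95 and 46.4 FPKM (fold 1.08, interval 1.03 to 1.13). The alpha chain gene Itga5 had 33.0 and 32.2 FPKM and Itga4 had 2.93 and 2.89 FPKM. The osteoclast marker list, which also holds Itgb3, had 1 of 6 counted genes called lower and 0 higher, beside 6.34% and 12.0% of all counted genes. The gene called was Dcstamp, at 2.02 and 3.33 FPKM (fold 0.606, interval 0.448 to 0.831). Besides Dcstamp and Itgb3, the counted genes of the list were Acp5 (fold 0.806), Atp6v0d2 (0.844), Nfatc1 (1.07) and Ctsk (1.21). The summed level of the list was 121 FPKM with anti-CD40 and 126 FPKM with IgG. Osteoclasts express Spp1 too, and the part of these markers in the Spp1 value was not tested.

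**Figure D3:**
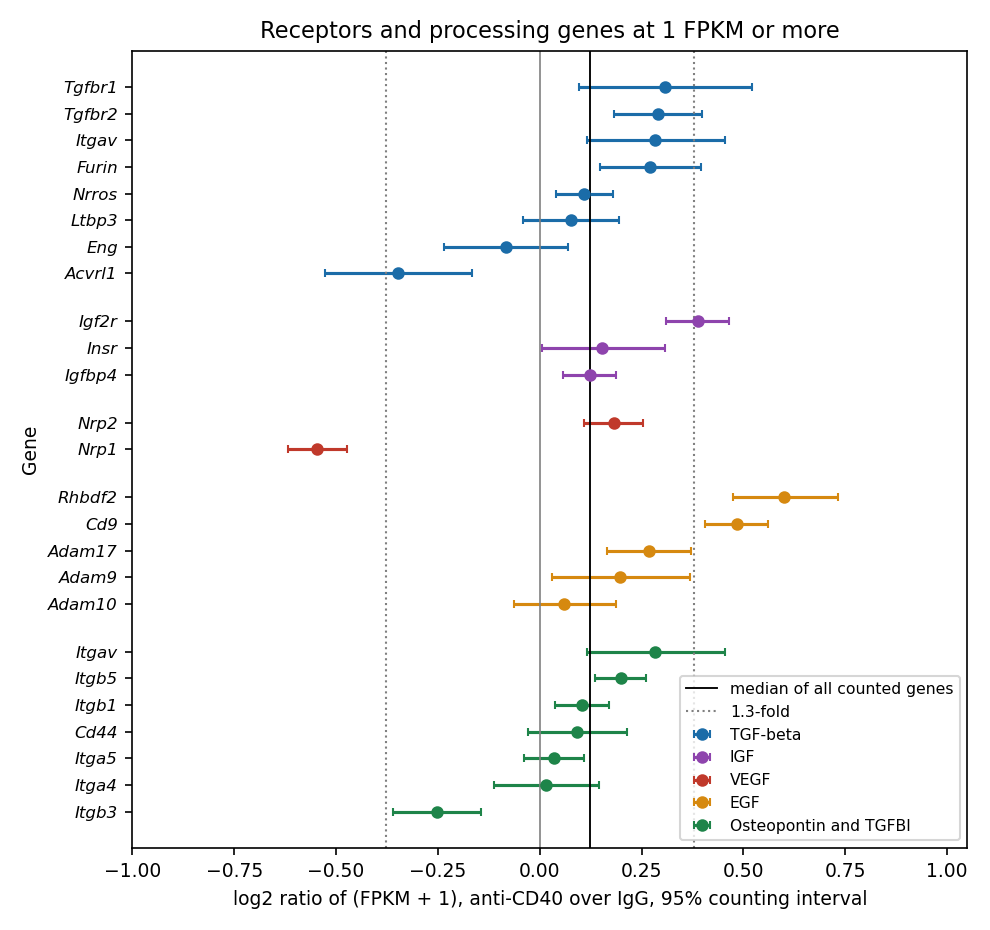
Anti-CD40 over IgG on the log2(FPKM + 1) scale (x axis) for receptors and processing genes at 1 FPKM or more, coloured by growth factor family, with 95% counting intervals as bars. Rhbdf2 (0.60), Cd9 (0.48) and Igf2r (0.39) lie beyond the 1.3-fold line on the right and Nrp1 (-0.55) beyond that on the left, and Itgav is drawn in both lists that hold it.

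The order of the 10 levels was the same in both libraries. Spp1 came first, followed by Tgfb1, Igf1, Vegfb, Tgfbi, Pdgfa, Pdgfb, Vegfa, Hbegf and Pdgfc. Neighbours whose counting intervals overlapped were Igf1 and Vegfb with IgG, Pdgfa and Pdgfb with anti-CD40, and Hbegf and Pdgfc in both. The levels ran from 0.189 to 369.5 FPKM with anti-CD40 and from 0.233 to 311 FPKM with IgG. The summed level of the 10 genes was 696 FPKM with anti-CD40 and 614 FPKM with IgG, a sum in which Spp1 is the largest term.

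**Figure D4:**
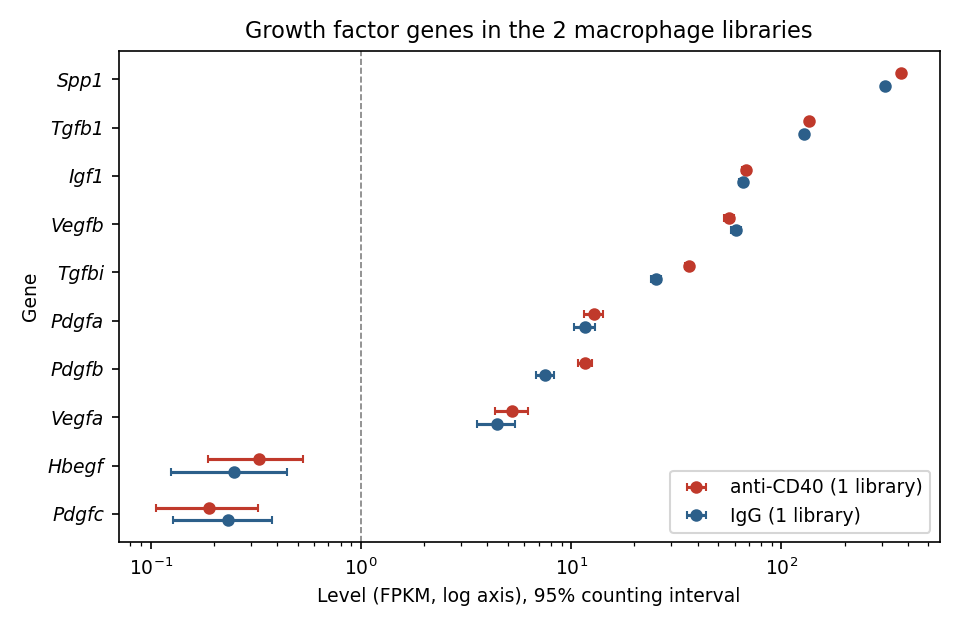
Level of each of the 10 genes in FPKM (log axis), with 1 point per library and 95% counting intervals as bars, the dashed line marking 1 FPKM. The intervals of the libraries do not overlap for Spp1, Tgfb1, Tgfbi and Pdgfb, and Hbegf and Pdgfc lie below 1 FPKM in both.

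The directions of the smaller differences depended on the scaling of the libraries. Centring moves every log2 ratio by the same amount. Rescaling to equal sums or equal upper quartiles moves genes of low level less, because 1 is added to each value. After centring on the all-gene median, or with equal upper quartiles, the log2 ratios of Tgfb1 and Igf1 changed from positive to negative. Of the counted members that were not called, Spp1 and Tgfb1 had fold intervals above 1 as deposited, and those of Pdgfa, Igf1, Vegfa and Vegfb included 1. Pdgfb and Tgfbi were past 1.3-fold under each of the 4 scalings, with log2 ratios from 0.45 to 0.62 and from 0.39 to 0.55.

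**Figure D5:**
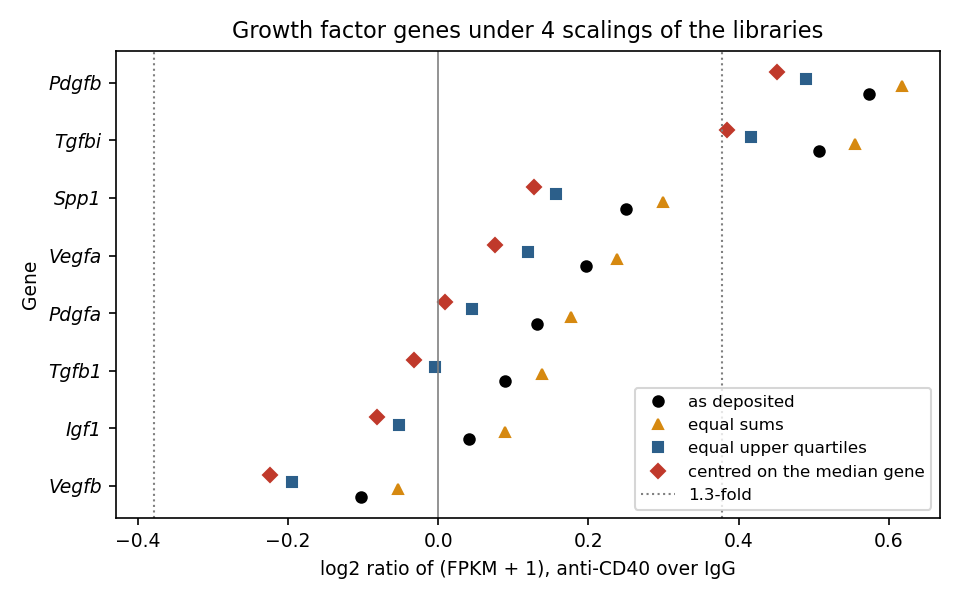
Anti-CD40 over IgG on the log2(FPKM + 1) scale (x axis) for the 8 counted genes under 4 scalings of the libraries, marked by shape. Pdgfb and Tgfbi stay beyond the dotted 1.3-fold line under each, Vegfb stays below 0, and Tgfb1 and Igf1 change side.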

How the data were processed

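The deposited table gave 1 value per gene and library, read as FPKM. No unit is named in it. The submitters' processing notes name HISAT2 2.1.0, StringTie and mm10, and FPKM was inferred from StringTie, with the columns summing to 529104 (anti-CD40) and 547362 (IgG). The annotation, the filters and the strand setting are each not given in the sources used here. Per the labels' protocols, 1.3 ug of total RNA went into a TruSeq preparation.

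The measure was the log2 ratio of (FPKM + 1), which understates differences of low genes, and folds are ratios of FPKM. Genes entered counts at 1 FPKM or more in either library, and calls were at 1.3-fold and 1.5-fold. With 1 library per group there was no test. Each of the 34714 symbols was found in RefSeq on GRCm38.p6.

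Depth came from genes with 1 RefSeq transcript and a span under 5000 bases. At the best step, 39.9% of 238 values (anti-CD40) and 38.2% of 173 (IgG) were whole multiples within 0.05 steps, against medians of 9.74% and 9.76% over the steps tried. A step was read as 0.5 aligned bases and a fragment as 300 bases. The absolute depths and interval widths rest on that reading, and the depth ratio of 1.10 does not. Approximate fragments used the median length of GENCODE basic transcripts. Intervals are conditional binomial for folds and within-library quotients and Poisson for levels (scipy 1.17.1). The ratio, calls and fold intervals were run on simulated data with counting error only, drawn at the same depths and lengths. That checks the calculation, and it cannot test the assumed depth or the spread between cultures.

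The naming rule took all members, listed ligands, receptors and processing genes at 1 FPKM or more, genes of other lists at least 1.3-fold apart, and genes that overlap a member. Genes named below 1 FPKM or listed at 0, marker genes, and others inside 1.3-fold were picked with their values in view. The members, lists and alternatives (pseudocounts of 0.1 and 5, no filter, a filter at 5 FPKM, centring, equal sums, equal upper quartiles) were chosen with earlier results of these data known. No column of per-sample values was left out, and 1 gene of the TGF-beta response list is not reported here.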

Additional observations from a re-analysis of the deposited data

How the results depend on the processing

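The count of growth factor genes at least 1.3-fold apart was 2 under all 7 alternatives run, and the genes were Pdgfb and Tgfbi each time. The median log2 ratio of the members ranged from 0.04 (centred on the all-gene median) to 0.21 (equal column sums), against 0.16 as reported. Of 68 values of single members under alternatives, 59 stayed within the counting interval, 9 left it and neither of the called genes changed sign. Spp1 left its interval under centring, equal sums and equal upper quartiles, and Tgfb1 under centring and equal upper quartiles. Tgfbi, Igf1 and Vegfb left theirs after centring, and Pdgfc with a pseudocount of 0.1. Running without a filter, or with the filter at 5 FPKM, leaves a gene's own ratio unchanged, so those values stayed within by construction. Tgfb1, Igf1 and Hbegf, none of them called, turned negative after centring. With a pseudocount of 0.1, or with equal column sums, 1 member (Pdgfb) passed 1.5-fold. The share of all genes called was 12.0% higher and 6.34% lower as deposited. It was 4.82% and 11.0% after centring, 6.71% and 9.13% with equal upper quartiles, and 16.3% and 5.20% with equal sums. The transcript length chosen sets the width of the intervals. With the longest annotated transcript, the Vegfa fold had an interval from 1.01 to 1.38, and with the shortest the Tgfb1 fold had one from 0.951 to 1.19, each moving across 1. No paired analysis was possible because each group is 1 library, and for the same reason no replicate could be left out. Depth limits Hbegf and Pdgfc, which rested on 11 to 16 fragments per library.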

Other observations

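Genes that respond to low oxygen, of which Vegfa is one, were described from a list of 14 others, with 10 at 1 FPKM or more. Of these, 3 were called higher and 0 lower by the same 1.3-fold rule, where 12.0% of all counted genes were called higher and 6.34% lower. The median log2 ratio was 0.20, against 0.12 for all counted genes. Pgk1, a glycolytic kinase gene, had 125 FPKM with anti-CD40 and 84.2 FPKM with IgG, 1.49-fold higher (interval 1.42 to 1.56). Ldha, the gene of lactate dehydrogenase A, had 144 and 98.8 FPKM, and Ndrg1 had 29.0 and 21.9 FPKM. The log2 ratio of Ndrg1, 0.39, became 0.27 after centring on the all-gene median, under the call. Hif1a, the oxygen-regulated transcription factor gene, had 3.03 and 2.50 FPKM (fold 1.21, interval 1.01 to 1.46). Adm, the adrenomedullin gene, was at 0.0257 FPKM with IgG and listed at 0 with anti-CD40.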
